A study of Homo sapiens with 8 samples.

Results

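GAS5 and SNHG1, SNHG3, SNHG5, SNHG6, SNHG7, SNHG8, SNHG12, SNHG15 and SNHG16 are long noncoding RNAs (lncRNAs) whose introns carry small nucleolar RNAs (snoRNAs). They were taken as the genes to which the RefSeq accession of a non-control probe on the array mapped by symbol. All 10 genes were found, with 24 of the 58201 non-control probes on the array. SNHG5 had 6 probes, SNHG7 had 4, SNHG6 and SNHG15 had 3 each, GAS5 and SNHG1 had 2 each, and SNHG3, SNHG8, SNHG12 and SNHG16 had 1 each. All 24 probes were well above background on all 8 arrays, so that no filter on dim probes removed any of them.

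The arrays compared OAW42-R cells, a cisplatin-resistant ovarian cancer line derived from OAW42, after transfection with 1 of 2 siRNA preparations at 20 nM. The 4 control arrays (sictrl) came from cells given the Lincode non-targeting pool. The other 4 (siUCA1) came from cells given the Lincode siRNAs numbers 2 and 4 against the lncRNA UCA1. Both groups were of the same single resistant line, with no untransfected cells among the arrays, and the replicates A1, M2, A2 and A3 of each group came from 4 independent experiments. The labels place RNA extraction 24 h after transfection, whereas the paper's methods give a longer time.

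In a snoRNA host gene, splicing releases introns from which the snoRNAs are trimmed, while the joined exons remain as a lncRNA with little coding capacity. Box C/D snoRNAs (named SNORD) guide 2'-O-methylation of ribosomal RNA and box H/ACA snoRNAs (named SNORA) guide pseudouridylation or, in some cases, cleavage. Many host genes start transcription at a C within a run of pyrimidines, the 5' terminal oligopyrimidine (TOP) element shared with ribosomal protein genes, and the spliced RNAs of several are degraded by nonsense-mediated decay during translation. GAS5, named for its accumulation in growth-arrested cells, is also known as an RNA that binds the DNA-binding domain of the glucocorticoid receptor.

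The start regions of the host genes are shown because a pyrimidine run there is the sequence feature for which this gene family is known. Of the 10 genes, 8 had an entry in the RefSeq promoter table for GRCh38.p14. Each line gives 30 bases of the transcript strand, 15 before the annotated start and 15 from it on. Capitals mark the longest run of a C followed by at least 4 letters that are C or T.
GAS5: tgccatcatgaattcagatgtgtttatttt
SNHG1: ccggggagattcgttctcatttttctactg
SNHG3: cctcagtgagtttctgattctctaactgcg
SNHG5: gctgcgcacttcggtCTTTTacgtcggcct
SNHG7: gCTTCCCTTCTCgtcctctgcgtgcgccgg
SNHG8: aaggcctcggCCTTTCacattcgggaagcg
SNHG12: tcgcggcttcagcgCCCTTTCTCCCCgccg
SNHG16: cgcaggggcggtctcgcgttCTTTTCgagg

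These windows lie at chr1:173869031-173869060 (GAS5, minus strand), chr11:62855871-62855900 (SNHG1, minus), chr1:28505928-28505957 (SNHG3, plus), chr6:85678719-85678748 (SNHG5, minus), chr9:136728170-136728199 (SNHG7, minus), chr4:118278747-118278776 (SNHG8, plus), chr1:28581859-28581888 (SNHG12, minus) and chr17:76557749-76557778 (SNHG16, plus). A run was found in 5 of the 8 windows, against 39.0% of 35116 promoters in the table. A run covers the start base of the table in SNHG5, SNHG8 and SNHG12 and, with a shorter run that is not in capitals, in SNHG7, thus in 4 of the 8, against 7.87% of promoters. For SNHG12 this start lies 1110 bases inside the gene's span, whereas for the other 7 it is the 5' end of the span. On the opposite strand the same search found a run in 3 of the 8, against 36.9% of promoters. Runs of at least 8 letters were in SNHG7 and SNHG12, 2 of the 8, against 10.6% of promoters. The palindrome CACGTG, the E-box letters, was searched over 300 bases (250 before the start and 50 after it) and was found in SNHG7 alone, 1 of the 8, against 7.26% of promoters. The annotated start can differ from the start used in these cells, so a window without a run says only that these letters are not at the annotated position.

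The siRNA target checked the labels, since UCA1 fell by 97.0% in siUCA1, from a level of 8.20 ± 0.49 to one of 3.16 ± 0.47 (SD, n = 4 each). All levels are log2 intensities relative to the 75th percentile of the array's non-control spots, and differences are siUCA1 minus sictrl on that log2 scale. The arrays sictrl A3 and siUCA1 A1, which shared column 2 of the slide, stood apart from the other 6. The fitted trend in brightness over their surface had a root mean square of 0.321 and 0.287, against 0.0737 to 0.0943 on the others. Of all probes tested, 23.8% and 22.4% deviated by at least 0.5 from the mean of their group's other 3 arrays, against 4.75% to 11.1% elsewhere. Calls of the members and counts of the lists are therefore given with and without both arrays. Of 11 markers of epithelial or ovarian carcinoma cells, 8 were well above background on at least 1 array, and WT1, MUC16 and MSLN were on none. Of the 8, MUC1 (-1.74) and CDH1 (-0.81) were lower in siUCA1 and none was higher, with 4 positive, 4 negative and a median of 0.04. With both arrays left out, 1 was higher and 2 were lower. Of 3 leukocyte markers tested, CD14 was higher (0.70, adjusted p = 0.0478, limma), whereas none of the 3 was called without those 2 arrays or under median scaling. Endothelial markers had 1 gene tested (VWF, -0.08) and fibroblast markers 0. The part of these markers in the results below was not tested.

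SNHG3 was 2.00-fold, SNHG7 1.60-fold and SNHG15 1.54-fold lower in siUCA1 than in sictrl, and no member's brightest probe passed the test upward. Thus 3 of the 10 members passed the test (adjusted p under 0.05, limma with Benjamini-Hochberg adjustment over all genes), compared with 11.6% of the 15457 genes tested. All 3 were lower, compared with 5.85% of all genes, and 0 were higher, compared with 5.72%. Without adjustment, 4 members were under 0.05, as were 27.6% of all genes. With the replicate name (A1, M2, A2 or A3) as a block, SNHG5 was called as well, as higher (adjusted p = 0.0499, limma). In that fit 11.2% of all genes were called. The 4 siUCA1 values lay entirely on one side of the 4 sictrl values for 5 members, with SNHG5 above and SNHG1, SNHG3, SNHG7 and SNHG15 below, against 20.9% of all genes. The members' median difference was 0.01, with 5 positive and 5 negative, and that of all genes was 0.03, with 54.1% of all genes positive. Their median absolute difference was 0.29, against 0.20 for all genes. The members' median SD between replicates was 0.12 in sictrl and 0.15 in siUCA1, compared with 0.19 and 0.20 over all genes. GAS5 (0.48 and 0.77) and SNHG3 (0.25 and 0.38) were above these all-gene medians in both groups.

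**Figure D1:**
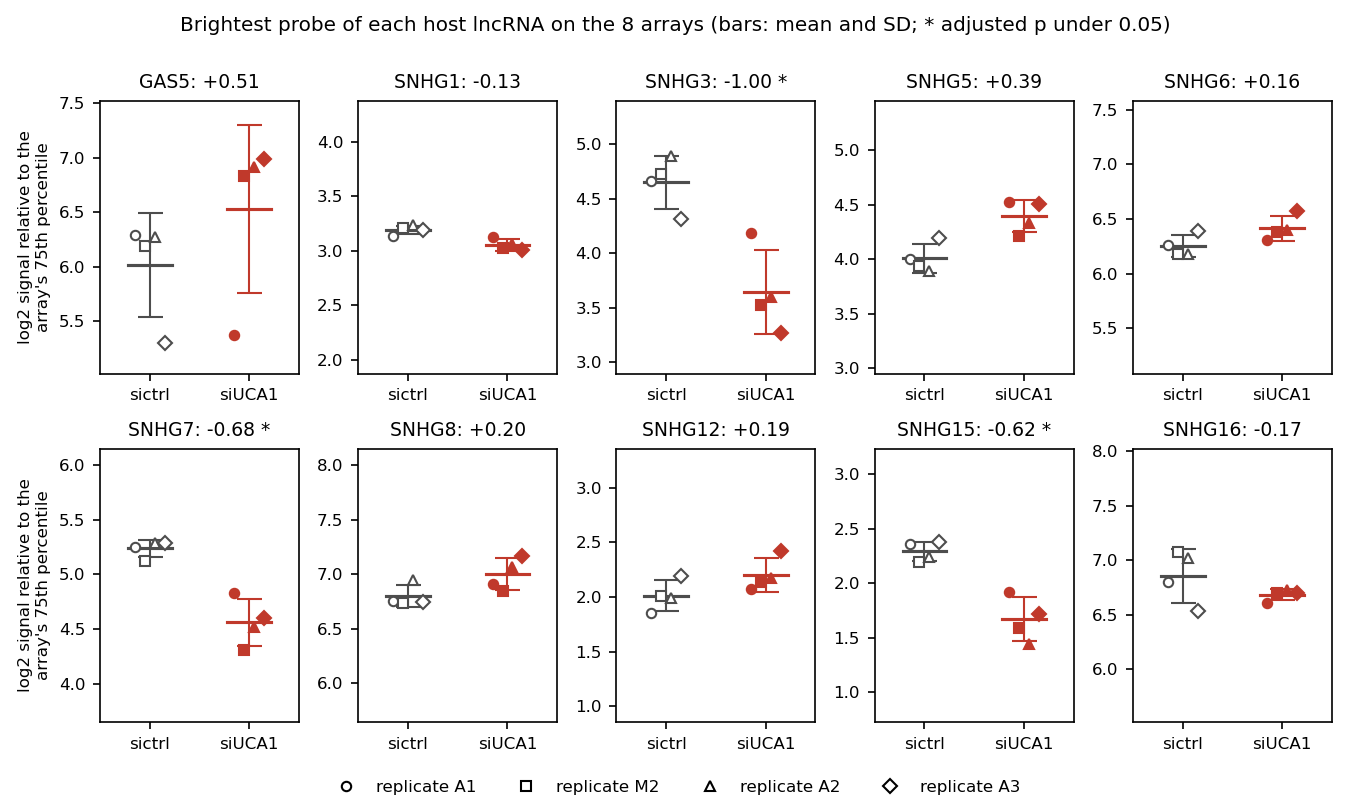
Level of each host gene by array, as log2 intensity of its brightest probe relative to the array's 75th percentile, with the 4 sictrl and 4 siUCA1 arrays as points and each group's mean and SD as bars. An asterisk marks an adjusted p under 0.05. SNHG3, SNHG7 and SNHG15 lie wholly lower in siUCA1, SNHG5 wholly higher, and GAS5 has 1 low array in each group.

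Tested probe by probe, 8 of the 24 member probes passed (adjusted p under 0.05, limma over 19048 probes), against 11.5% of all probes. Of these, 3 were higher (1 of GAS5 and 2 of SNHG5) and 5 were lower (1 of SNHG3, 2 of SNHG7 and 2 of SNHG15). The groups did not overlap for 11 of the 24 probes, against 20.7% of all probes. Probes of 1 gene share its transcripts and are not independent of each other.

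**Figure D2:**
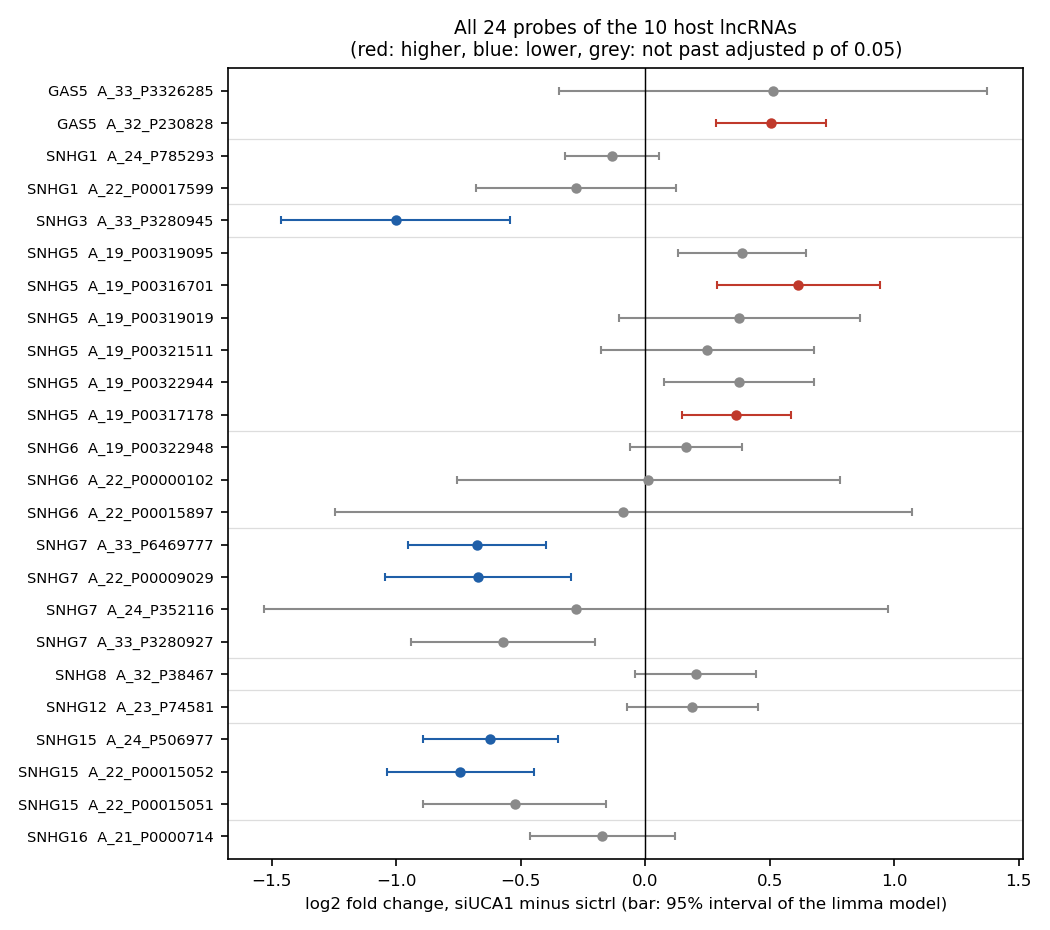
Difference of siUCA1 minus sictrl for each of the 24 probes on the log2 scale, with the 95% confidence interval from limma. Red (higher) and blue (lower) points passed the test over all probes and grey ones did not, and all 6 SNHG5 probes lie above 0 while the probes of SNHG3, SNHG7 and SNHG15 lie below it.

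SNHG3 (chr1:28505943-28510892, GRCh38.p14) carries SNORA73A and SNORA73B, snoRNAs that take part in the cleavage of the ribosomal RNA precursor. It was at 4.66, 4.73, 4.89 and 4.31 in the sictrl arrays A1, M2, A2 and A3. In the siUCA1 arrays of the same names it was at 4.18, 3.52, 3.60 and 3.27. Every siUCA1 array was thus below every sictrl array, and siUCA1 A1 and sictrl A3 were the closest pair. The difference was -1.00 (standard error 0.20, adjusted p = 0.017, limma), the greatest of the 10 members in size and rank 357 by size among the 15457 genes. Without those 2 arrays it was -1.30 (adjusted p = 0.00181, limma). The call did not hold in 4 of the 8 fits that left out a single array (without sictrl M2, sictrl A2, siUCA1 M2 or siUCA1 A2), where the adjusted p from limma reached 0.0575 and the difference lay between -0.99 and -0.92.

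SNHG7 (chr9:136724594-136728184), which carries SNORA17A and SNORA17B, was measured by 4 probes. The brightest was at 5.26, 5.12, 5.29 and 5.28 in sictrl A1, M2, A2 and A3, and at 4.83, 4.31, 4.52 and 4.60 in siUCA1. The groups did not overlap, with siUCA1 A1 again the highest of its group. This probe fell by 0.68 (standard error 0.12, adjusted p = 0.011, limma). A second probe, assigned to another RefSeq transcript of the gene, fell by 0.67 (adjusted p = 0.0336, limma). The dimmest had a difference of -0.57 (adjusted p = 0.0558, limma), just outside the threshold. The remaining probe, with a difference of -0.28 (standard error 0.55), spread from -1.20 to 1.18 within sictrl alone, and its lowest value in each group was on sictrl A3 and siUCA1 A1. Without these arrays, 3 of the 4 SNHG7 probes passed, beside 23.6% of all probes, and this last one was at -0.45 (adjusted p = 0.273, limma). When single arrays were left out, the brightest probe stayed between -0.77 and -0.59 and passed in all 8 fits, while the second probe passed in 1 of the 8 (without siUCA1 A1).

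SNHG15 (chr7:44983023-44986696) carries SNORA9, and its spliced RNA is known as a short-lived transcript that responds to cell stress. Its brightest probe was at 2.36, 2.19, 2.24 and 2.38 in sictrl and at 1.92, 1.59, 1.45 and 1.72 in siUCA1. The lowest sictrl array was above the highest siUCA1 array. The difference was -0.62 (standard error 0.12, adjusted p = 0.014, limma). The second probe was at 1.85, 1.63, 1.70 and 1.92 in sictrl and at 1.24, 0.85, 0.84 and 1.20 in siUCA1, and it fell by 0.74 (adjusted p = 0.010, limma). The dimmest of the 3 was at -0.65 ± 0.09 and -1.17 ± 0.33 (SD, n = 4), with the groups apart and an adjusted p of 0.072 from limma. All 3 probes passed without sictrl A3 and siUCA1 A1, beside 23.6% of all probes, with differences from -0.76 to -0.68. The first 2 probes passed in all 8 fits that left out a single array. Under median scaling the second passed and the brightest did not (adjusted p = 0.0410 and 0.0843, limma over all probes). Neither passed with normexp background correction or with no detection filter.

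GAS5 (chr1:173863901-173869045) carries 10 box C/D snoRNAs and had 2 probes, both assigned to the same transcript. The brighter was at 6.29, 6.19, 6.27 and 5.31 in sictrl A1, M2, A2 and A3, and at 5.38, 6.83, 6.91 and 6.99 in siUCA1. In each group 3 arrays were close together and 1 was lower by 0.95 or 1.53 than their mean, and these low values were on sictrl A3 and siUCA1 A1. The groups overlapped, and the difference was 0.51 (standard error 0.38, 95% confidence interval -0.35 to 1.38, adjusted p = 0.427, limma). The second probe was at 3.77, 3.73, 3.58 and 3.82 in sictrl and at 4.29, 4.20, 4.12 and 4.32 in siUCA1. It had no low array and the groups did not overlap (p = 0.0286 in a two-sided exact permutation test, which cannot go lower with 4 arrays in each group). Its difference was also 0.51, with a standard error of 0.10 (95% confidence interval 0.29 to 0.73, adjusted p = 0.014, limma over all probes). GAS5 was thus at 1.43-fold and 1.42-fold of sictrl by its 2 probes, with different errors. Without the 2 arrays that stood apart, both passed, at 0.66 (adjusted p = 0.00423, limma) and 0.52 (adjusted p = 0.0126, limma), beside 23.6% of all probes. Leaving out a single array moved the brighter probe between 0.28 and 0.90, and it passed without siUCA1 A1. The second probe stayed between 0.46 and 0.54, and it missed the threshold in 1 of the 8 fits.

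**Figure D3:**
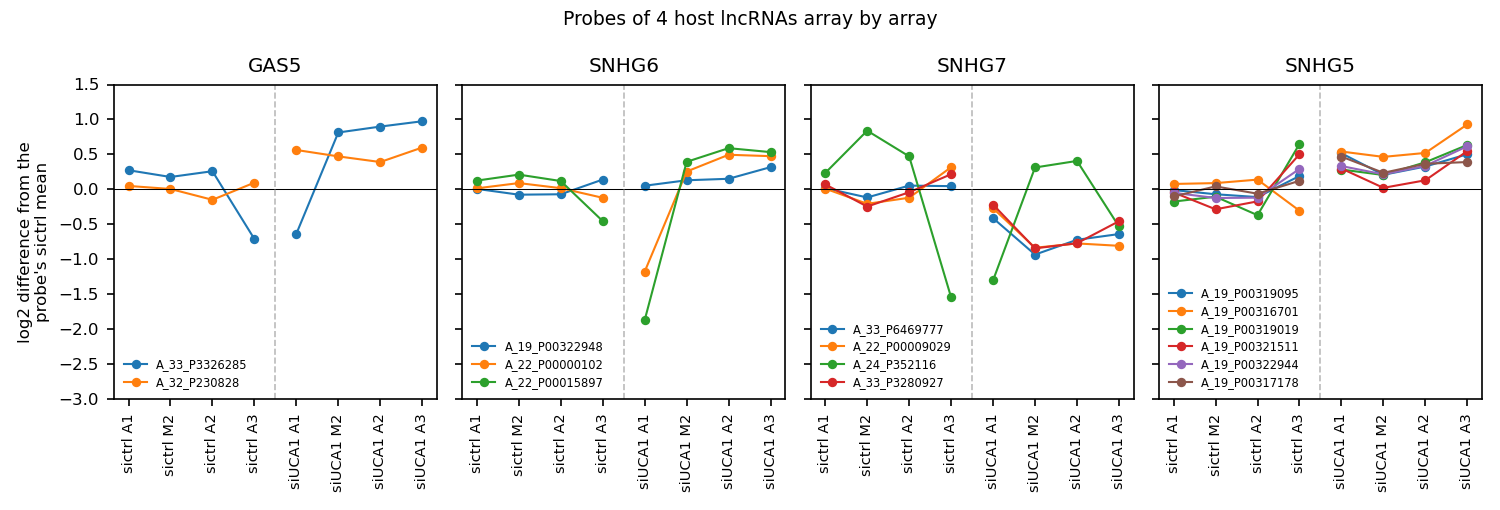
Every probe of GAS5, SNHG6, SNHG7 and SNHG5 on each of the 8 arrays, as log2 intensity minus the probe's mean over the sictrl arrays, with 1 line per probe and condition. The brighter GAS5 probe and a probe of SNHG7 are low on sictrl A3 and siUCA1 A1, and 2 SNHG6 probes are low on siUCA1 A1, while the second GAS5 probe has no low array.

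SNHG5 (chr6:85677007-85678733) carries SNORD50A and SNORD50B. Its brightest probe was at 4.00, 3.94, 3.90 and 4.20 in sictrl and at 4.52, 4.21, 4.33 and 4.51 in siUCA1. The groups did not overlap, though sictrl A3 lay just under siUCA1 M2. The difference was 0.39 (standard error 0.11, adjusted p = 0.058, limma), and it was 0.41 (adjusted p = 0.0271, limma) without the 2 arrays that stood apart. All 6 SNHG5 probes had a positive difference, from 0.25 to 0.61, and 2 of them passed over all probes, at 0.61 (adjusted p = 0.029, limma) and 0.37 (adjusted p = 0.0435, limma). With the replicate name as a block, these 2 missed the threshold (adjusted p = 0.0835 and 0.0772, limma). The brightest probe passed with that block in the fit over genes (adjusted p = 0.0499, limma). The probe with a difference of 0.61 was at 3.71, 3.72, 3.77 and 3.32 in sictrl and at 4.17, 4.09, 4.15 and 4.56 in siUCA1. The first of these calls held in 2 and the second in 1 of the 8 fits that left out a single array, and both held without sictrl A3 and siUCA1 A1 together. In that last setting 5 of the 6 probes passed, beside 23.6% of all probes, against 11.5% of all probes on all 8 arrays.

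SNHG6 and SNHG1, both hosts of box C/D snoRNAs, did not pass on any of their probes. SNHG6 (chr8:66921690-66925541) carries SNORD87, and its 3 probes had differences of 0.16, 0.01 and -0.09, with adjusted p from limma of 0.333 or more. On siUCA1 A1 the 2 other SNHG6 probes, the second and the third in brightness, were at 4.96 and 1.82, whereas the other siUCA1 arrays were at 6.39 to 6.63 and at 4.08 to 4.28. Without sictrl A3 and siUCA1 A1 these 2 probes were at 0.37 (adjusted p = 0.0336, limma) and 0.35 (adjusted p = 0.0295, limma), and the first at 0.25 (adjusted p = 0.0833, limma). SNHG1 (chr11:62851978-62855885), host of 8 box C/D snoRNAs, was at 3.14, 3.20, 3.23 and 3.19 in sictrl and at 3.13, 3.02, 3.07 and 3.01 in siUCA1. These groups did not overlap, yet the difference was only -0.13 (95% confidence interval -0.32 to 0.05, adjusted p = 0.325, limma). The second, dimmer SNHG1 probe was at -0.28 (adjusted p = 0.352, limma) on all arrays, with sictrl A3 at -0.61 and the other sictrl arrays at 0.05 to 0.17. It fell by 0.40 (adjusted p = 0.0173, limma) without the 2 arrays that stood apart.

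SNHG8, SNHG12 and SNHG16 had 1 probe each and none passed. SNHG8 (chr4:118278762-118279823), host of SNORA24, was at 6.80 ± 0.10 in sictrl and 7.00 ± 0.15 in siUCA1 (SD, n = 4), a difference of 0.20 with a 95% confidence interval of -0.04 to 0.44. SNHG12 (chr1:28578538-28582983), host of SNORA16A, SNORA44, SNORA61 and SNORD99, was at 2.01 ± 0.14 and 2.20 ± 0.15 (SD, n = 4), a difference of 0.19 with an interval of -0.07 to 0.45. SNHG16 (chr17:76557764-76565348), host of SNORD1A, SNORD1B and SNORD1C, was at 6.86 ± 0.25 and 6.68 ± 0.05 (SD, n = 4), a difference of -0.17 with an interval of -0.46 to 0.12. The intervals of all 3 include 0, which does not show that these RNAs stayed level. None of the 3 passed without sictrl A3 and siUCA1 A1, where their adjusted p from limma was 0.208, 0.0851 and 0.0937.

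Sorted by the kind of snoRNA in their introns, a grouping made after the values were seen, 5 of the hosts carry box C/D snoRNAs only and 5 carry at least 1 of the box H/ACA kind. The 3 members that fell are all among the 5 with a box H/ACA snoRNA, whose differences ran from -1.00 to 0.20. Those of the box C/D hosts ran from -0.17 to 0.51, and none of their brightest probes passed. Without sictrl A3 and siUCA1 A1, 6 members passed. SNHG3, SNHG7 and SNHG15 were lower and GAS5, SNHG5 and SNHG6 were higher, and SNHG6 was then represented by another of its probes. The dimmer probe of SNHG1, a box C/D host, was also lower there, and 24.3% of all genes passed. With array weights, SNHG16, another box C/D host, was called lower at -0.28 (adjusted p = 0.0473, limma), where 29.8% of all genes passed. No test was made of this division.

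The slide had 2 rows and 4 columns, and each column held 1 array of each condition. Within columns, the siUCA1 array was above the sictrl array in all 4 for GAS5 and SNHG5, and below it in all 4 for SNHG1, SNHG3, SNHG7 and SNHG15. These are 6 of the 10 members, against 37.8% of the 15447 genes that had no missing value. In column 2, which held the 2 arrays that stood apart, SNHG3 differed by -0.13, against -1.13 to -1.39 in the other columns. GAS5 differed by 0.07 there, against 0.55 to 0.72 elsewhere. By row, SNHG3 differed by -1.08 and -0.92, SNHG7 by -0.49 and -0.86, SNHG15 by -0.40 and -0.85, SNHG5 by 0.60 and 0.18, and GAS5 by -0.05 and 1.07. With the column as a block, SNHG3 missed the threshold (adjusted p = 0.0561, limma) and SNHG7 and SNHG15 passed.

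None of the snoRNAs inside the hosts passed the test. The list held 35 snoRNAs, of which 34 had an entry in the RefSeq table, all of them within the span of their host. On the array, 21 of them were tested and 19 were well above background on all 8 arrays. Their median difference was -0.09, from -0.62 to 0.18, with 5 positive and 16 negative, whereas 54.1% of all genes were positive. Of the 21, 1 was under 0.05 without adjustment. That was SNORD75 of GAS5, which went from -1.44 ± 0.30 to -2.06 ± 0.54 (SD, n = 4), a difference of -0.62 (adjusted p = 0.172, limma). SNORD75 was kept through sictrl and was well above background on 3 of the 4 siUCA1 arrays, so this size is uncertain. The other 5 tested snoRNAs of GAS5 ran from -0.42 (SNORD74) to 0.08 (SNORD47), beside 0.51 for both probes of the GAS5 transcript. For all tested GAS5 snoRNAs the lowest siUCA1 value was on siUCA1 A3, such as -1.08 for SNORD44 (the others at -0.33 to 0.27). SNHG15 fell by 0.62, and its snoRNA SNORA9 had a difference of 0.05 with a 95% confidence interval of -0.50 to 0.59. For SNHG1 7 snoRNAs were tested, from -0.52 (SNORD27) to 0.12 (SNORD26), and for SNHG12 4, from -0.37 (SNORA44) to 0.18 (SNORA16A). No snoRNA of SNHG3, SNHG5 or SNHG7 was on the array by name, so host and snoRNA could not be set side by side there. A probe within a snoRNA can bind the mature snoRNA or the unspliced host, which cannot be told apart here. Under median scaling 19 of the 21 were negative, where the median of all genes was -0.07. Without sictrl A3 and siUCA1 A1, 21 of 23 were negative and 1 was called, beside 24.3% of all genes. The array siUCA1 A3, which was kept in these counts, held the lowest siUCA1 value for nearly all of the 21. Examples are SNORD76 (0.45, the others at 1.03 to 2.00) and SNORD47 (-1.66, the others at -0.88 to -0.70). The part of this array in the negative signs was not tested.

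**Figure D4:**
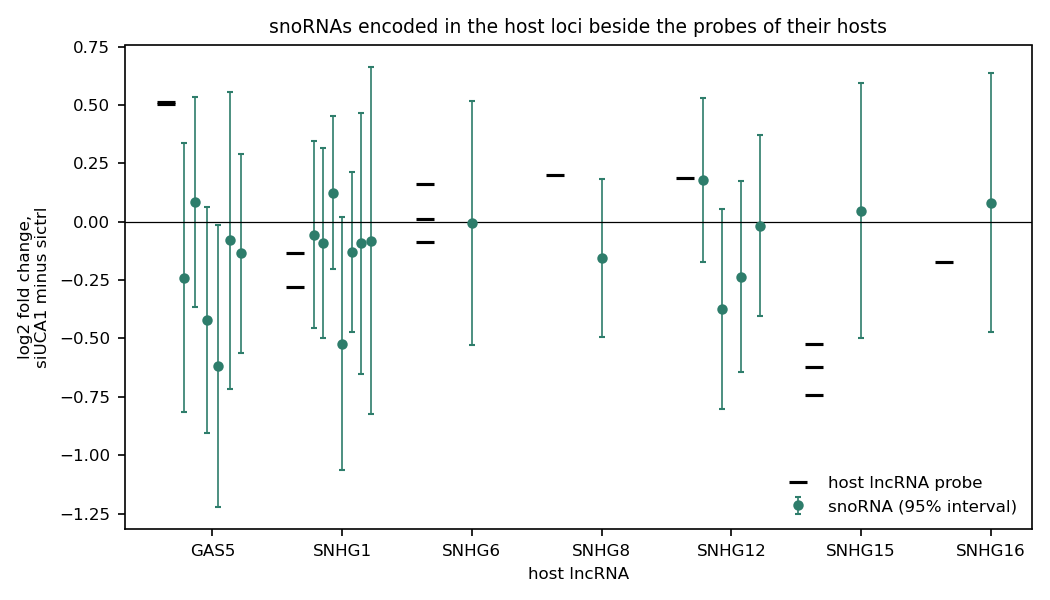
Difference of siUCA1 minus sictrl on the log2 scale for each tested snoRNA (points, with 95% confidence intervals) under its host, with the host's own probes as dashes. The snoRNAs of GAS5 lie from -0.62 (SNORD75, not well above background on every siUCA1 array) to 0.08 and both of its host probes at 0.51, and no snoRNA passed the test. The lowest siUCA1 value of each GAS5 snoRNA was on siUCA1 A3.

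Other genes that share the host arrangement were read from lists. Of 11 other snoRNA host lncRNAs tested, 2 fell and 0 rose. SNHG21 fell by 1.30 (adjusted p = 0.0033, limma), from -0.34 ± 0.16 to -1.63 ± 0.31 (SD, n = 4). SNHG10 fell by 1.11 (adjusted p = 0.0151, limma), but its probe was kept through sictrl and was well above background on only 2 of the 4 siUCA1 arrays, so that the size of its fall is uncertain. The median of the 11 was 0.01. With sictrl A3 and siUCA1 A1 left out, 2 of 12 were higher and 4 were lower, beside 24.3% of all genes called. Of 22 protein-coding genes that host snoRNAs, CNOT1, the scaffold of the CCR4-NOT deadenylase, rose by 0.41 and TNPO2, an importin of the transportin family, fell by 0.32, with a median of -0.05. Without the same 2 arrays, 0 of the 22 were higher and 3 were lower, and under median scaling none was called. None of 20 proteins of the snoRNA particles and their assembly passed, with a median of -0.14 and 16 of 20 negative, and without the 2 arrays 3 of the 20 were lower.

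The turnover and translation of host RNAs were covered by further lists. Of 20 factors of nonsense-mediated decay, MAGOHB, a core protein of the exon junction complex, rose by 0.40 and the median was -0.04. Without sictrl A3 and siUCA1 A1, MAGOHB was no longer called, and 0 of 21 were higher and 3 lower, in a setting where 24.3% of all genes were called. None of 18 known mRNA targets of this decay passed, with a median of -0.13 and 14 of 18 negative, and without the 2 arrays 2 were higher and 3 lower. Among 22 other mRNAs with a 5' TOP element that encode no ribosomal protein, none passed, with a median of 0.23 and 20 of 22 positive. Of all genes, 54.1% were positive. Under quantile normalization that median was 0.11 with 15 of 22 positive, and under median scaling it was 0.13 with 17 of 22 positive, while the median of all genes was 0.01 and -0.07. Without sictrl A3 and siUCA1 A1, 7 of the 22 rose and 0 fell. Of 10 genes of the glucocorticoid receptor and its targets, NFKBIA, the inhibitor of NF-kB, fell by 0.37 and the median was -0.11, and without the 2 arrays 2 were higher and 1 was lower. Under median scaling none of the 10 was called.

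LncRNAs that host no snoRNA served as a contrast, with 17 tested. Besides UCA1, GABPB1-AS1, well above background on 3 of the 4 siUCA1 arrays, fell by 0.85 and HOTAIRM1 by 0.61, while NEAT1, the backbone of paraspeckles, rose by 0.54, OIP5-AS1 by 0.40 and NORAD, a lncRNA that binds Pumilio proteins, by 0.38. Thus 3 rose and, with UCA1, the target of the siRNAs, 3 fell in this list, while 5.72% of all genes were called higher and 5.85% lower. A difference between this list and the members was not tested. UCA1's difference was -5.04. Under median scaling, none of the 17 was called higher and 2 were called lower, and without sictrl A3 and siUCA1 A1 2 of 18 were higher and 4 lower, where 24.3% of all genes were called.

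**Figure D5:**
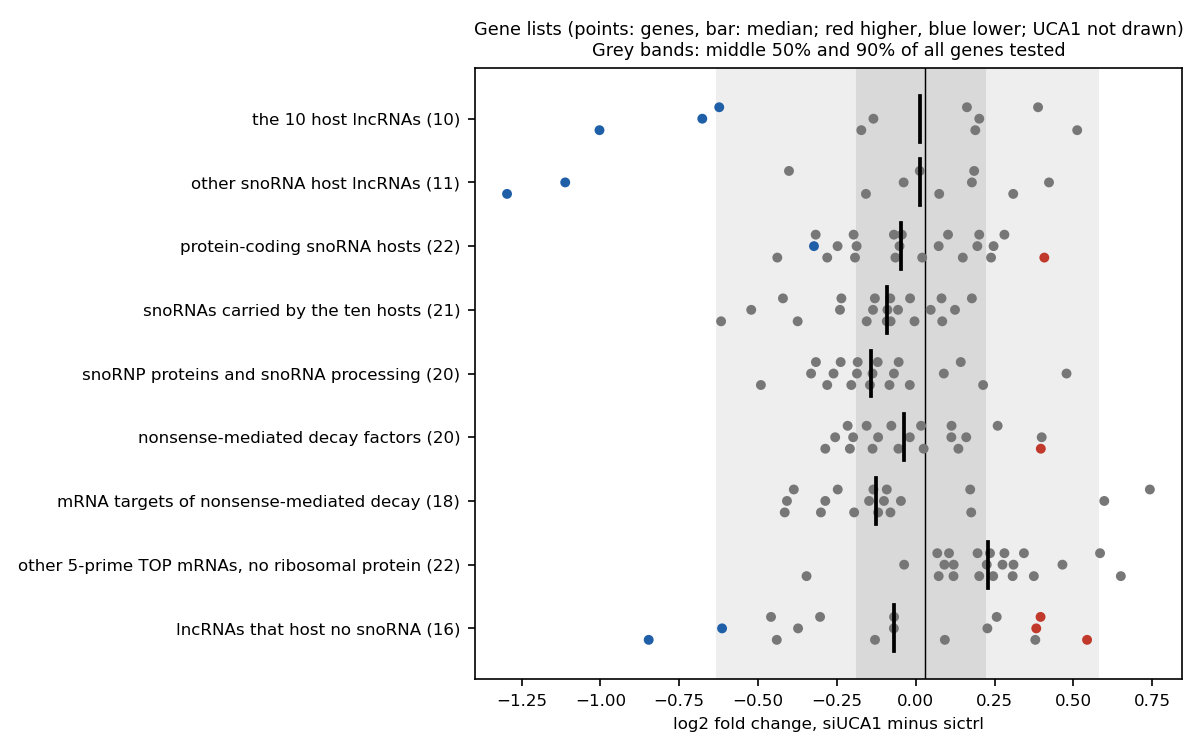
Difference of siUCA1 minus sictrl on the log2 scale for each gene of the host lncRNAs and of the lists read beside them, with the list's median as a bar, called genes in red (higher) or blue (lower), and grey bands for the spread of all genes. UCA1 is not drawn, and the list of other 5' TOP mRNAs has the highest median (0.23) with no gene called.

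Genes that start within 2000 bases of a member on the other strand were found for 2 of the 8 members with an entry in the promoter table. SNHG6 and SNHG15 had no entry and were not searched, and SNHG12 was searched from a start 1110 bases inside its span. ZBTB37, a zinc finger gene, starts 665 bases from the GAS5 start, inside the span of GAS5. It was at -0.87, -0.85, -0.96 and -2.45 in sictrl and at -0.53, -0.38, -0.71 and -0.71 in siUCA1. The groups did not overlap, sictrl A3 was far below the rest, and the difference of 0.70 did not pass (adjusted p = 0.216, limma). SLC3A2, which encodes the heavy chain of the amino acid transporter CD98, starts 224 bases from the SNHG1 start. Both groups were at 4.07, with SDs of 0.12 and 0.15 (n = 4), and the 95% confidence interval of the difference ran from -0.25 to 0.25. ZBTB37 and GAS5 overlap on opposite strands.

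The genes whose 8 values were most like those of the brighter GAS5 probe were CRYZL2P (Pearson r = 0.989), MZT2B (r = 0.988) and LZIC (r = 0.987), over 8 arrays. None passed the test, with differences of 0.32, 0.34 and 0.22 and adjusted p from limma of 0.416, 0.481 and 0.489. These points share the arrays sictrl A3 and siUCA1 A1, on which the GAS5 probe was low, so the likeness includes that of the 2 arrays.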

How the data were processed

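Total RNA of 8 cultures was measured on 1-color Agilent 8x60k arrays. The submitters' processing notes name Agilent Feature Extraction 10.7.3.1. The authors deposited its output with an intensity per spot, corrected for background and for a surface trend and not normalized between arrays. Other deposited columns used were flags (outlier, saturated, well above background). The deposited value table held the same numbers (largest relative difference 0). The paper names limma with Benjamini-Hochberg adjustment and no scaling.

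The log2 of the deposited intensity was taken, less the 75th percentile of each array's non-control spots. Outlier spots were dropped and spots of 1 probe averaged. Probes were kept if all 4 arrays of either condition had them well above background, which left 19048 probes of 15457 genes, each gene at its brightest kept probe. Accessions were named through RefSeq of GRCh38.p14. Fits (lmFit and eBayes of limma 3.58.1 under R 4.3.3, with the data.table package, 1.17.8) were tested on simulated data. Figures were drawn with matplotlib 3.10.9 under Python 3.11.15. Called means an adjusted p under 0.05. All 8 arrays were on 1 slide scanned in 1 session, with 0 saturated spots. The labels' replicate names come from independent experiments, and the number of arrays limits precision.

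The members, gene lists and settings were chosen with earlier results of these data known. The lists were other snoRNA host lncRNAs, protein-coding snoRNA hosts, snoRNP proteins and snoRNA processing, nonsense-mediated decay factors and their mRNA targets, other 5' TOP mRNAs, lncRNAs that host no snoRNA, the glucocorticoid receptor and its targets, the members' snoRNAs, and markers of epithelial, leukocyte, endothelial and fibroblast cells. Named were all members, UCA1, called genes of each list (up to 4 a direction), the nearest gene starting on the other strand within 2000 bases, and the 3 genes most like GAS5. Alternatives were quantile, median and detected-probe scaling, normexp, 2 other filters, the mean of detected probes, trend and robust eBayes, array weights, the replicate name or slide row as a block, the value table, and arrays left out. The slide column as a block and centring on the kept genes' median were added after seeing the data. Single values were also compared by two-sided exact permutation tests. The paper's other arrays were not used here.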

Additional observations from a re-analysis of the deposited data

Results flagged for a closer look

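Of 48 sets of 4 values (24 probes in 2 conditions), 10 had a highest or lowest array far from the other 3, by Dixon's test at its 95% critical value for 4 values. Chance alone gives this in about 5% of sets. Array sictrl A3 held 4 of the 10, siUCA1 A1 another 4, siUCA1 A3 held 1 and sictrl A2 held 1, and 7 of the 10 were low values. The first 2 are the arrays with the strongest surface trend, and the part of that trend in these values was not tested.

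The brighter GAS5 probe was at 5.31 on sictrl A3 (the others at 6.19 to 6.29) and at 5.38 on siUCA1 A1 (the others at 6.83 to 6.99). Among the SNHG6 probes, the second was at 4.96 on siUCA1 A1 (the others at 6.39 to 6.63), and the third was at 3.23 on sictrl A3 (the others at 3.81 to 3.90) and at 1.82 on siUCA1 A1 (the others at 4.08 to 4.28). An SNHG5 probe was at 3.32 on sictrl A3 (the others at 3.71 to 3.77) and, in siUCA1, at 4.56 on A3 (the others at 4.09 to 4.17). The dimmer SNHG1 probe was at -0.61 on sictrl A3 (the others at 0.05 to 0.17). The second SNHG7 probe was at 3.096 on siUCA1 A1 (the others at 2.53 to 2.59). SNHG8 was at 6.95 on sictrl A2 (the others at 6.74 to 6.76).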

How the results depend on the processing

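No member's gene-level difference changed direction under any alternative. Among single probes, 2 of SNHG6 (-0.15 to 0.41 and -0.31 to 0.51) and 1 of SNHG7 (-0.79 to 0.06) changed sign. With 3 members called (0 higher, 3 lower) and 8 probes called on all arrays, normexp gave 0 members, 0 lower and 1 probe, and no detection filter gave 0 members, 0 lower and 0 probes, among 47753 genes of which 76 were called. The differences moved little in both, at -0.99 and -1.00 for SNHG3, -0.64 and -0.68 for SNHG7 and -0.59 and -0.62 for SNHG15. Quantile normalization, the 75th percentile over detected probes and eBayes with trend and robust settings each added SNHG5, for 1 higher. Array weights gave 6 members (2 higher) and 14 probes, with 4599 genes called. Median scaling gave 3 probes and lost SNHG15, at -0.72 (adjusted p = 0.0815, limma). It also called 535 genes, of which 21.3% were higher, against 1788 and 49.4%. Normexp called 380 genes. Without sictrl A3 and siUCA1 A1, 6 members (3 higher) and 17 probes were called, beside 24.3% of all genes and 23.6% of all probes. Leaving out 1 array gave 0 to 1 members higher, 2 to 4 members in all and 3 to 11 probes, and the genes called ranged from 760 (without sictrl A2) to 2290 (without siUCA1 A1). The cause of these moves was not tested.

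The replicate block, with the replicate name A1, M2, A2 or A3 as a block, called 4 members, 1 of them higher (SNHG5, adjusted p = 0.0499, limma), and 1727 genes. By probe it called 7 of the 24. The 2 SNHG5 probes called without the block missed the threshold (adjusted p = 0.0835 and 0.0772, limma) and another SNHG5 probe passed (0.0456), and the second SNHG7 probe missed it (0.0512) while the dimmest passed. Deviations of arrays of the same name correlated at 0.04, 0.28, 0.22 and 0.13, and those of different names at -0.31 to 0.21. Array siUCA1 A1 correlated best with sictrl A3 (0.18), the other array that stood apart. The main fit leaves the replicates unpaired. These correlations cannot show that they were not paired, because the names A1 and A3 each hold an array that stood apart.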
